A study of Mus musculus with 12 samples.

Results

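The genes described here mark the 2 circulating forms of mouse monocyte. Ly6c2, Ccr2, Plac8 and F13a1 belong to inflammatory monocytes and Cx3cr1, Nr4a1, Spn and Ace to patrolling monocytes. They were taken by symbol, 8 genes of the 24956 in the count table, and the question was how each kind differed between tumours of the 2 host genotypes. RNA was read in 12 tumours of PDA.69, 1 KPC-derived line of pancreatic ductal adenocarcinoma whose label calls it T cell-low; 6 tumours were Alb-Cre+/+ STAT3f/f and 6 were wild type (WT). The albumin promoter drives Cre in hepatocytes of the Alb-Cre+/+ STAT3f/f host, where floxed Stat3 is removed; the same tumour line was used for both genotypes. Hosts with Cre alone or floxed Stat3 alone were not analysed here, and the labels give neither the age of the hosts nor whether each tumour came from a separate animal, so p-values rest on the spread between these samples only, which may be technical.

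Inflammatory monocytes leave the bone marrow through the chemokine receptor CCR2, carry high levels of the surface protein Ly6C, and enter inflamed tissue and tumours, where they become macrophages and dendritic cells. Patrolling monocytes arise largely from them when the transcription factor NR4A1 is switched on. They lose Ly6C and CCR2, gain the fractalkine receptor CX3CR1, and crawl along the inner wall of small vessels. In pancreatic tumours, CCR2-dependent monocytes are a known source of macrophages. None of the 8 genes is restricted to monocytes: macrophages carry CX3CR1, T cells carry the sialomucin encoded by Spn, endothelium carries ACE, resident macrophages and platelets hold factor XIII, and Nr4a1 is also an immediate early gene. The same limit applies to Ly6c2 and Ccr2, and which cells held them in these tumours was not tested.

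The libraries held 6083638 to 8085609 counts in Alb-Cre+/+ STAT3f/f tumours and 5691707 to 7594880 counts in WT tumours. They were read from the 3′ ends of transcripts, so levels of different genes are not compared. Values are CPM, the usual depth-scaled unit, after scaling by the trimmed mean of M values (TMM). Tumours differed in normal exocrine pancreas: 15 acinar enzyme genes took 0.618 to 34.4% of counts in Alb-Cre+/+ STAT3f/f tumours and 0.479 to 17.6% in WT tumours, and over 15% in 4 Alb-Cre+/+ STAT3f/f and 1 WT tumour. The 8 ductal carcinoma markers were all tested, and their summed level was 1928 to 2275 CPM in Alb-Cre+/+ STAT3f/f tumours and 2469 to 2860 CPM in WT tumours, with no overlap. One of them, Sox9, fell by 0.49 on the log2 scale (edgeR adjusted p = 0.0103), and was at -0.47 ± 0.14 without the acinar-rich tumours, where the call was lost (adjusted p = 0.160). In bulk tumours, fewer cells of a type and less RNA per cell cannot be told apart.

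The inflammatory genes Ly6c2 and Ccr2 were higher in Alb-Cre+/+ STAT3f/f tumours, by 3.42-fold and 2.445-fold, and the patrolling genes Cx3cr1, Nr4a1, Spn and Ace did not pass the test in either direction. Of the 4 inflammatory genes 2 rose, 0 fell and 2 did not pass. Of the 4 patrolling genes 0 rose and 0 fell, with 2 positive and 2 negative fold changes. Genotypes were compared by the quasi-likelihood test of edgeR, adjusted by Benjamini-Hochberg over 12856 genes, and all 8 genes passed the filter on low counts. Of the 12856 genes 2.98% were called, 2.23% higher and 0.747% lower. The median log2 fold change was 1.02 over the inflammatory genes, -0.01 over the patrolling genes and 0.00 over all genes tested.

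**Figure D1:**
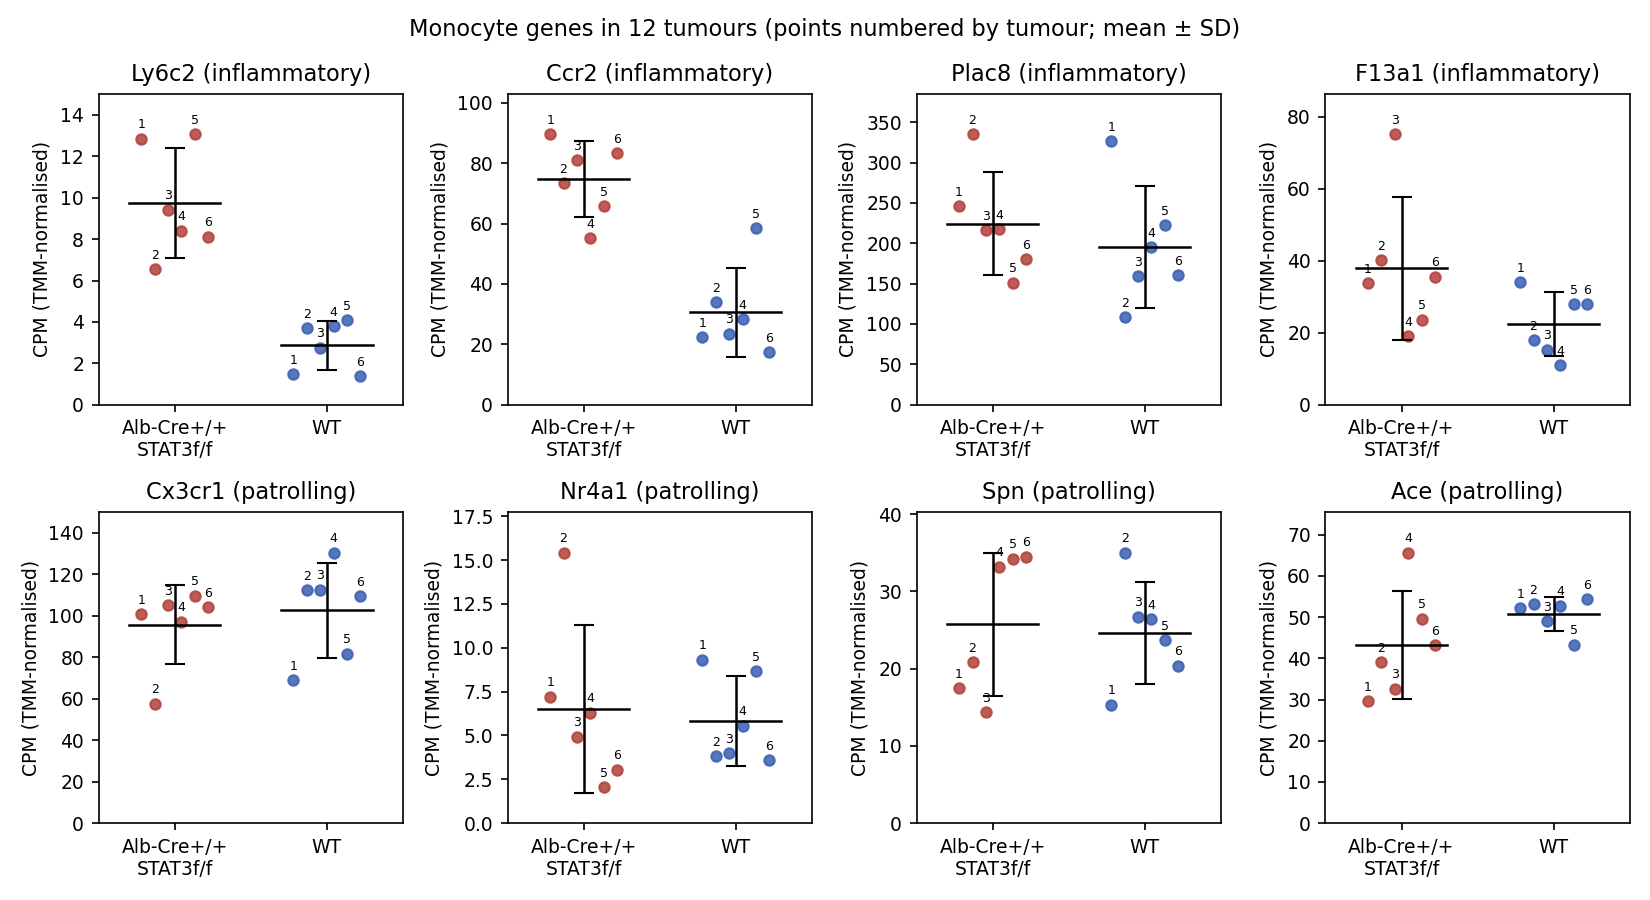
Level of each gene in each tumour, in TMM-normalised CPM on axes from 0, with Alb-Cre+/+ STAT3f/f tumours on the left and WT tumours on the right of each panel. Points are single tumours with their number, and bars are the mean ± SD of 6 tumours. Ly6c2 does not overlap between the genotypes and Ccr2 overlaps through WT 5 alone, while the other genes overlap.

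Ly6c2 encodes the Ly6C antigen by which inflammatory monocytes are recognised (chromosome 15, 75108161 to 75112066, minus strand, GRCm38.p6). Its lowest, median and highest level was 6.55, 8.92 and 13.1 CPM in Alb-Cre+/+ STAT3f/f tumours, against 1.39, 3.22 and 4.09 CPM in WT tumours. The genotypes did not overlap, and every one of the 6 Alb-Cre+/+ STAT3f/f values exceeded the highest WT value, which held for 1.37% of all genes tested. This is a log2 fold change of 1.77 ± 0.30 (SE; edgeR adjusted p = 0.00281). The gene is scarce, at 28 to 102 counts in a Alb-Cre+/+ STAT3f/f library and 10 to 32 counts in a WT library. The call was kept in each of the 19 alternative settings in which the gene was tested, at log2 fold changes of 1.63 to 2.01. It stood at 2.01 ± 0.40 (adjusted p = 0.0299) without the 5 tumours with over 15% acinar counts.

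Ly6c2 has a neighbour, Ly6c1 (chromosome 15, 75044018 to 75048920, minus strand), which endothelial cells also express. In GENCODE transcripts, 287 of 293 aligned bases (98.0%) at the 3′ end were the same in both genes, and the longest run without a difference was 124 bases. Reads from either gene can therefore be shared, and the sources used here do not say how such reads were placed. Ly6c1 stood at 114, 146 and 236 CPM (lowest, median, highest) in Alb-Cre+/+ STAT3f/f tumours, against 86.3, 119 and 137 CPM in WT tumours. The fold change of Ly6c1 was 0.44 ± 0.16 on the log2 scale (edgeR adjusted p = 0.145), and 0.87 ± 0.16 (adjusted p = 0.0251) without the acinar-rich tumours. Within a tumour, the log2 ratio of Ly6c2 to Ly6c1 was -3.97 ± 0.55 in Alb-Cre+/+ STAT3f/f tumours, against -5.29 ± 0.41 in WT (SD, n = 6 each), and the genotypes did not overlap.

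The start regions of the gene pair and of Ccr2 are shown because Ly6c2 and Ccr2 rose while Ly6c1 did not pass. Each is 250 bases before to 50 bases after 1 RefSeq start site on GRCm38.p6, written 5′ to 3′ on the gene's strand. That site is not the outer end of the RefSeq gene span: it lies 95 bases inside the span for Ly6c2, 83 for Ly6c1 and 265 for Ccr2, so other start sites of these genes are not shown. The windows lie at chr15:75111922-75112221 for Ly6c2, chr15:75048788-75049087 for Ly6c1 and chr9:124101933-124102232 for Ccr2. Capitals mark GAGGAAGT, the core sequence of the myeloid factor PU.1, in either direction.
Ly6c2: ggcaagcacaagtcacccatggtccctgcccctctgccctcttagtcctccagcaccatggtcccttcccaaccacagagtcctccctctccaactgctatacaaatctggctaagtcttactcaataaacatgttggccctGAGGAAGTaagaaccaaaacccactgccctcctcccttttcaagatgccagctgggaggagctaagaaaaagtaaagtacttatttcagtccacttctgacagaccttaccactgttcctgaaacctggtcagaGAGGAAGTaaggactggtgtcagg
Ly6c1: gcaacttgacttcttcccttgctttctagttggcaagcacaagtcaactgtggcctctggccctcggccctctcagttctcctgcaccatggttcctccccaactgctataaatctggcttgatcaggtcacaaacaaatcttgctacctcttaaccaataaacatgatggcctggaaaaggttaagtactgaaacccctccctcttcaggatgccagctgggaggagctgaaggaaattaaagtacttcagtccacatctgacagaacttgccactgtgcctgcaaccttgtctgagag
Ccr2: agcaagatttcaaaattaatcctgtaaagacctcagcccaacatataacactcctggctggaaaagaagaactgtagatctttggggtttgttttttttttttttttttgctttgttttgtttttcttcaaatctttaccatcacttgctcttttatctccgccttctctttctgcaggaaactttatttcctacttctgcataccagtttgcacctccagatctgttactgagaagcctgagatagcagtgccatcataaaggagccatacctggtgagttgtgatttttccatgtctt
Ly6c2 and Ly6c1 were the same at 208 of 266 aligned bases (78.2%) there, far less than at the 3′ end. Ly6c2 held 2 matches to GAGGAAGT, and the windows of Ly6c1 and Ccr2 held 0; 3.28% of the 27025 start regions searched held at least 1. A match describes the letters only.

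Ccr2 encodes the receptor through which inflammatory monocytes follow CCL2 and related chemokines (chromosome 9, 124101918 to 124109140, plus strand). Its lowest, median and highest level was 55.1, 77.2 and 89.6 CPM in Alb-Cre+/+ STAT3f/f tumours, against 17.5, 25.9 and 58.5 CPM in WT tumours. The ranges touched through WT 5, the WT tumour with the most acinar counts, which lay above Alb-Cre+/+ STAT3f/f 4 alone. Ccr2 had a log2 fold change of 1.29 ± 0.25 (SE; edgeR adjusted p = 0.0143), with 5 of 6 Alb-Cre+/+ STAT3f/f values above the highest WT value. The call was kept in all 20 alternative settings, at log2 fold changes of 1.12, when the acinar score entered as covariate (adjusted p = 0.0350), to 1.57 without the acinar-rich tumours.

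Plac8, a small cysteine-rich protein of myeloid cells that is also found in epithelium, stood at 151, 217 and 335 CPM in Alb-Cre+/+ STAT3f/f tumours, against 108, 178 and 327 CPM in WT tumours (lowest, median, highest). The ranges overlapped almost wholly, with WT 1 close to the highest Alb-Cre+/+ STAT3f/f tumour. Plac8 had a log2 fold change of 0.20 ± 0.26 (edgeR adjusted p = 0.723). Its sign turned to -0.093 when the acinar score entered as covariate and to -0.20 without the acinar-rich tumours. F13a1, the A subunit of coagulation factor XIII, stood at 19.1, 34.7 and 75.2 CPM in Alb-Cre+/+ STAT3f/f tumours, against 11.003, 22.9 and 34.1 CPM in WT tumours. F13a1 had a log2 fold change of 0.75 ± 0.36 (edgeR adjusted p = 0.274), with 3 of 6 Alb-Cre+/+ STAT3f/f values above the highest WT value. It was 0.44 without Alb-Cre+/+ STAT3f/f 3, the highest tumour. An exon of F13a1 overlaps an antisense gene, and the sources used here do not state the strand setting of the counts.

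Cx3cr1, the receptor for the membrane-bound chemokine fractalkine (chromosome 9, 120048683 to 120068296, minus strand), stood at 57.5, 103 and 110 CPM in Alb-Cre+/+ STAT3f/f tumours, against 68.9, 111 and 130.5 CPM in WT tumours. The genotypes overlapped throughout. Alb-Cre+/+ STAT3f/f 2 was the lowest tumour of all and stood apart from the other Alb-Cre+/+ STAT3f/f tumours, which lay between 97.2 and 110 CPM. Cx3cr1 averaged 95.8 ± 19.2 CPM in Alb-Cre+/+ STAT3f/f tumours, against 103 ± 22.8 CPM in WT (SD, n = 6 each), a log2 fold change of -0.10 ± 0.16 (edgeR adjusted p = 0.789). The sign turned in 3 alternatives, at most to 0.073 when the acinar score entered as covariate.

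Nr4a1, the transcription factor needed to form patrolling monocytes (chromosome 15, 101253902 to 101274795, plus strand), stood at 2.05, 5.62 and 15.4 CPM in Alb-Cre+/+ STAT3f/f tumours, against 3.60, 4.78 and 9.33 CPM in WT tumours. The Alb-Cre+/+ STAT3f/f tumours spread more widely on both sides: 1 lay above every WT tumour and 2 lay below. The 2 low ones, Alb-Cre+/+ STAT3f/f 5 and 6, are also the Alb-Cre+/+ STAT3f/f tumours with the fewest acinar counts; the part of acinar content in this was not tested. Nr4a1 had a log2 fold change of 0.12 ± 0.41 (edgeR adjusted p = 0.907). Its sign was not stable: it was -0.32 without Alb-Cre+/+ STAT3f/f 2, -0.64 ± 0.34 when the acinar score entered as covariate and -1.05 ± 0.46 without the acinar-rich tumours, with adjusted p of 0.707, 0.501 and 0.423. The 14 immediate early genes, of which 13 were tested, summed to 750 to 1132 CPM in Alb-Cre+/+ STAT3f/f tumours, against 755 to 1549 CPM in WT tumours. Of them 0 rose and 1 fell, Egr1 by 1.00 ± 0.23 on the log2 scale (edgeR adjusted p = 0.0361). That call was lost, at adjusted p of 0.0557 to 0.0937, without Alb-Cre+/+ STAT3f/f 1, 3, 4 or 6 or WT 1 or 2. The part of these genes in the level of Nr4a1 was not tested beyond the relation given below.

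The region around 1 start site of Nr4a1 (chr15:101266596-101266895, plus strand, RefSeq on GRCm38.p6), which lies 12944 bases inside the gene span, is shown beside that of Cx3cr1 (chr9:120068247-120068546, minus strand), written as above, because these are the patrolling genes set against Ly6c2 and Ccr2. Capitals mark TGCGTCA, a variant of the cyclic AMP response element, in either direction.
Nr4a1: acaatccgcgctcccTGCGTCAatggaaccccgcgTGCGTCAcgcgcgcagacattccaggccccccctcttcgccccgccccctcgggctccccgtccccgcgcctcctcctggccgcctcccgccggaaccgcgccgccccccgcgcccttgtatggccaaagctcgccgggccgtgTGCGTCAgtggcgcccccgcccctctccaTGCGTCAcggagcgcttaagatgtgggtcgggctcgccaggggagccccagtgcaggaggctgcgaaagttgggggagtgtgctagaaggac
Cx3cr1: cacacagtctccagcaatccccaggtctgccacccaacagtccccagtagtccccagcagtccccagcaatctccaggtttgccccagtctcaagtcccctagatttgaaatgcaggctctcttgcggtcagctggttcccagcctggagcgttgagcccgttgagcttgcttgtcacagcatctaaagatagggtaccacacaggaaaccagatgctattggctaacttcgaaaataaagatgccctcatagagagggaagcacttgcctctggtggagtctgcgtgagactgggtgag
Nr4a1 held 4 copies of TGCGTCA, all before that start site and on its own strand, and Cx3cr1 held 0. At least 1 copy was found in 2.19% of the 27025 start regions. The whole element TGACGTCA (1.88% of start regions) and the C/EBP sequence TTGCNNAA (10.8%) were in none of the windows of the 8 genes.

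Spn, the sialomucin CD43, which is high on patrolling monocytes and on T cells, stood at 14.4, 27.0 and 34.5 CPM in Alb-Cre+/+ STAT3f/f tumours, against 15.4, 25.0 and 35.0 CPM in WT tumours. Alb-Cre+/+ STAT3f/f 4, 5 and 6 lay near the highest WT tumour and Alb-Cre+/+ STAT3f/f 1, 2 and 3 in the lower part of the WT range or below it. Spn had a log2 fold change of 0.08 ± 0.23 (edgeR adjusted p = 0.890), whose sign turned, to -0.03 at most, without any 1 of Alb-Cre+/+ STAT3f/f 4, 5 or 6 or WT 1. Ace, angiotensin-converting enzyme, stood at 29.6, 41.1 and 65.6 CPM in Alb-Cre+/+ STAT3f/f tumours, against 43.3, 52.5 and 54.3 CPM in WT tumours. Of the Alb-Cre+/+ STAT3f/f tumours 4 lay below every WT tumour and 1 above, so that the Alb-Cre+/+ STAT3f/f tumours enclosed the narrow WT range. Ace had a log2 fold change of -0.23 ± 0.16 (edgeR adjusted p = 0.451), and it was negative in all 20 alternatives. Ace also has an exon that overlaps an antisense gene.

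**Figure D2:**
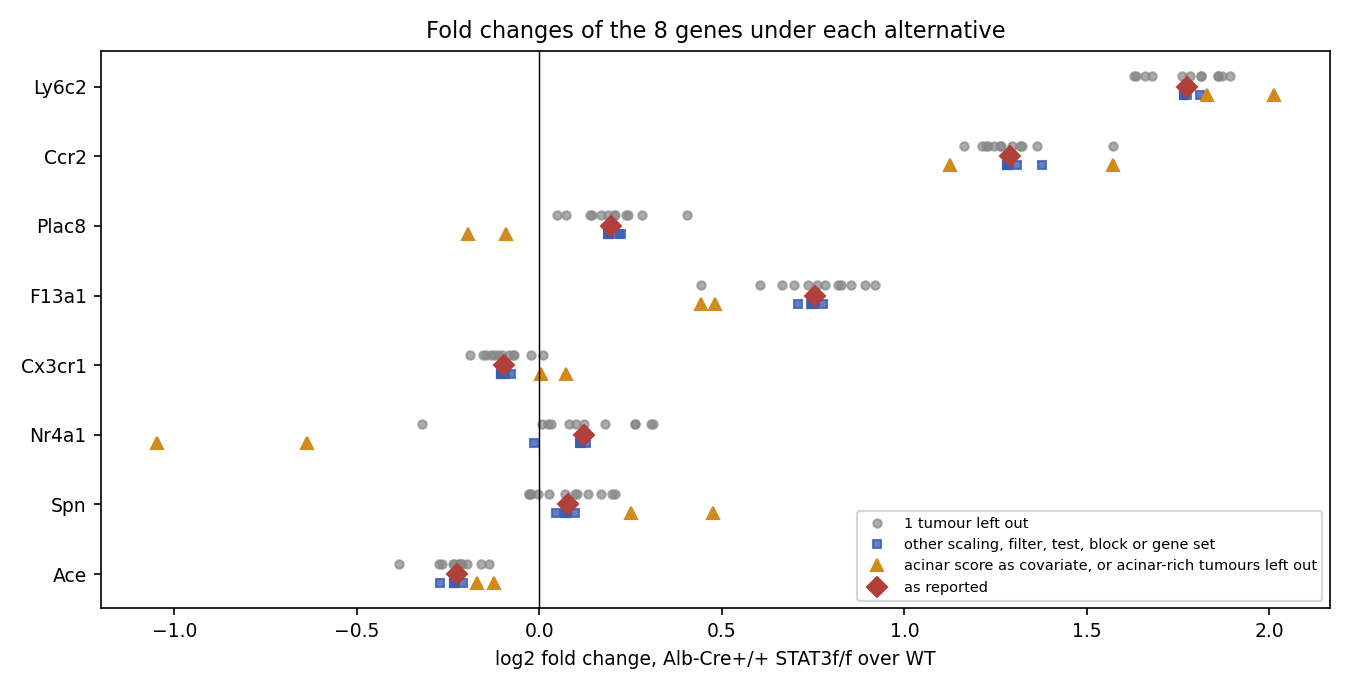
Log2 fold change (Alb-Cre+/+ STAT3f/f over WT, x axis) of each of the 8 genes (rows) as reported and in each alternative setting. Ly6c2 and Ccr2 stay at 1.12 or above in every setting run, while Plac8, Cx3cr1, Nr4a1 and Spn lie on both sides of 0.

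Set against each other within a tumour, the 2 kinds of gene gave a measure in which the scaling of the library nearly cancels. The mean log2 CPM of Ly6c2 and Ccr2 minus that of Nr4a1 and Cx3cr1 was 0.22 ± 0.48 in Alb-Cre+/+ STAT3f/f tumours, against -1.39 ± 0.52 in WT (SD, n = 6 each). The difference of 1.61 is 3.05-fold. The lowest, median and highest tumour stood at -0.43, 0.29 and 0.89 in Alb-Cre+/+ STAT3f/f hosts, against -2.03, -1.36 and -0.76 in WT hosts, so that the genotypes did not overlap. No p is given for this ratio, since the genes were chosen with earlier results of these data known, and whether the inflammatory and patrolling genes differ in their change was not tested.

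Each of the 4 single-gene ratios had a higher mean in Alb-Cre+/+ STAT3f/f tumours. The difference of Alb-Cre+/+ STAT3f/f minus WT was 1.83 for Ly6c2 over Cx3cr1, 1.75 for Ly6c2 over Nr4a1, 1.47 for Ccr2 over Cx3cr1 and 1.39 for Ccr2 over Nr4a1, on the log2 scale. For Ly6c2 over Cx3cr1 the genotypes did not overlap, at -3.64 to -2.94 in Alb-Cre+/+ STAT3f/f against -6.03 to -4.23 in WT tumours. For the other ratios, in the order given, 5, 4 and 5 of 6 Alb-Cre+/+ STAT3f/f values exceeded the highest WT value. Nr4a1 and Cx3cr1 ran against each other between tumours of 1 genotype (r = -0.802, given below), so their spread partly cancels in the 4-gene measure. Its SD in Alb-Cre+/+ STAT3f/f tumours was 0.48. The SD there was 1.22 for Ly6c2 and 0.98 for Ccr2 over Nr4a1, and 0.28 for Ly6c2 and 0.42 for Ccr2 over Cx3cr1. The difference in the 4-gene measure was 1.48 to 1.74 with any 1 tumour left out and 2.22 without the acinar-rich tumours.

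Csf1r, the receptor for the growth factor that keeps monocytes and macrophages alive, gives a reference shared by both kinds. It stood at 365, 648 and 828 CPM in Alb-Cre+/+ STAT3f/f tumours, against 254, 417 and 563 CPM in WT tumours, a log2 fold change of 0.65 ± 0.20 (edgeR adjusted p = 0.0833; 0.0220 without Alb-Cre+/+ STAT3f/f 2). Relative to Csf1r, Ly6c2 stood at -5.99 ± 0.48 in Alb-Cre+/+ STAT3f/f tumours, against -7.07 ± 0.37 in WT on the log2 scale (SD, n = 6 each), without overlap. For Ccr2 the values were -3.06 ± 0.48 and -3.79 ± 0.55, in the same order, with 2 of 6 Alb-Cre+/+ STAT3f/f values above the highest WT value. Cx3cr1 over Csf1r stood at -2.72 ± 0.20 in Alb-Cre+/+ STAT3f/f tumours, against -1.97 ± 0.26 in WT, and here every Alb-Cre+/+ STAT3f/f value lay below the lowest WT value. Nr4a1 over Csf1r overlapped between the genotypes, at -6.78 ± 1.30 in Alb-Cre+/+ STAT3f/f tumours, against -6.11 ± 0.79 in WT. Of its Alb-Cre+/+ STAT3f/f values 3 lay below every WT value and 1 above. These ratios were not tested.

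**Figure D3:**
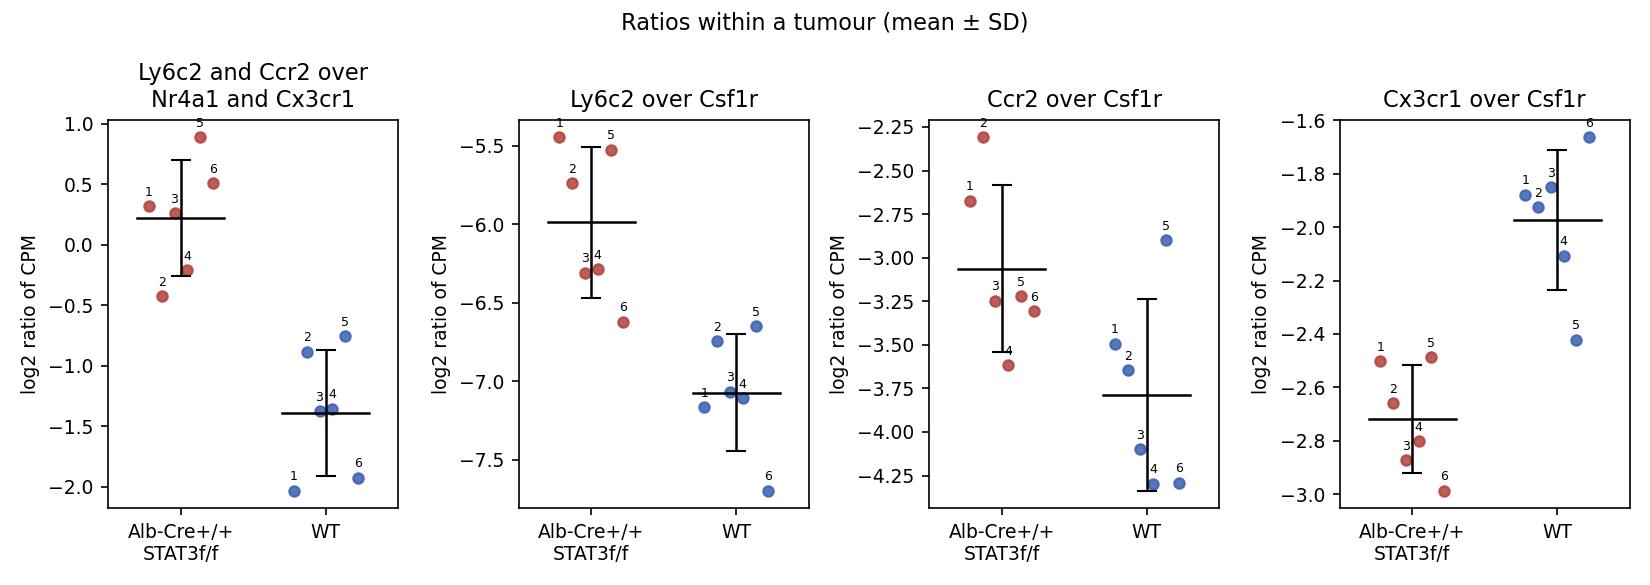
Log2 ratios of CPM within each tumour, with Alb-Cre+/+ STAT3f/f tumours on the left and WT tumours on the right of each panel (points numbered by tumour, bars mean ± SD, n = 6). Nr4a1 over Csf1r, which overlaps, is not drawn. The genotypes do not overlap for the 4-gene ratio, for Ly6c2 over Csf1r or for Cx3cr1 over Csf1r, which is the one that is lower in Alb-Cre+/+ STAT3f/f tumours; Ccr2 over Csf1r overlaps.

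Further genes of inflammatory monocytes did not move as a block. Of 20 such genes 19 were tested: 3 rose, 0 fell and 16 failed the threshold, with 13 positive and 6 negative fold changes and a median of 0.30. The 20 genes summed to 8483.5 to 9138 CPM in Alb-Cre+/+ STAT3f/f tumours, against 8013 to 10510 CPM in WT tumours, so the genotypes overlapped. Most of that sum came from S100a6, Ly6e and Ifitm3. These averaged 3779, 1812 and 1272 CPM in Alb-Cre+/+ STAT3f/f tumours, against 4555, 1480 and 1031 CPM in WT tumours. The sum therefore says little about the scarcer genes of the list. Lyz2, the lysozyme of myeloid cells, averaged 34.8 ± 7.13 CPM in Alb-Cre+/+ STAT3f/f tumours, against 19.1 ± 3.75 CPM in WT tumours (SD, n = 6 each). Lyz2 rose by 0.86 ± 0.17 on the log2 scale (edgeR adjusted p = 0.00809), without overlap. Itgam, an integrin of myeloid cells, rose by 0.78 ± 0.18 on the log2 scale (edgeR adjusted p = 0.0200, 5 of 6 tumours), and its call was lost without Alb-Cre+/+ STAT3f/f 1 or 2 or WT 6, at 0.0521 to 0.0601. Itgam had an edgeR adjusted p of 0.0904 when the acinar score entered as covariate.

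Further genes of patrolling monocytes were mostly on the positive side as well. Of 18 genes 13 were tested: 3 rose, 0 fell and 10 failed the threshold, with 11 positive and 2 negative fold changes and a median of 0.50. The 18 genes summed to 334 to 424 CPM in Alb-Cre+/+ STAT3f/f tumours, against 265 to 327 CPM in WT tumours, without overlap. Clec4a3, a C-type lectin of monocytes, averaged 22.6 ± 3.28 CPM in Alb-Cre+/+ STAT3f/f tumours, against 11.4 ± 2.67 CPM in WT tumours (SD, n = 6 each). It rose by 0.98 ± 0.17 (edgeR adjusted p = 0.00415, without overlap), and was at 0.89 ± 0.23 without the acinar-rich tumours, where the call was lost (adjusted p = 0.0959). Itgal, an integrin that T cells also carry, rose by 0.93 ± 0.22 (adjusted p = 0.0248, 4 of 6 tumours). Its call was lost without Alb-Cre+/+ STAT3f/f 1 or 2 or WT 1, 3 or 6, at edgeR adjusted p of 0.0555 to 0.0760. Cd36, a scavenger receptor also found on endothelium and adipocytes, rose by 1.34 ± 0.35 (adjusted p = 0.0415, 4 of 6 tumours), and its call was lost without any 1 of 8 tumours (Alb-Cre+/+ STAT3f/f 1, 2 and 3 and WT 2 to 6), at 0.0557 to 0.107. Cd36 was at 0.79 ± 0.36 (edgeR adjusted p = 0.390) when the acinar score entered as covariate and at 0.25 ± 0.45 (adjusted p = 0.910) without the acinar-rich tumours.

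Of the patrolling list 5 genes did not pass the filter on low counts. Treml4, a receptor largely restricted to these monocytes, totalled 68 counts over 6 Alb-Cre+/+ STAT3f/f libraries (2 to 21 each), against 21 over 6 WT libraries (0 to 7 each). For Alb-Cre+/+ STAT3f/f and then WT libraries, Cd300e totalled 8 and 8 counts, Ear2 57 and 34, Adgre4 13 and 3, and Apoc2 0 and 0. In these further lists 3 of 19 inflammatory and 3 of 13 patrolling genes rose. Over all genes tested 2.23% were called higher, the share to set beside each list here and below. Neither the difference between the lists nor their difference from that share was tested.

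**Figure D4:**
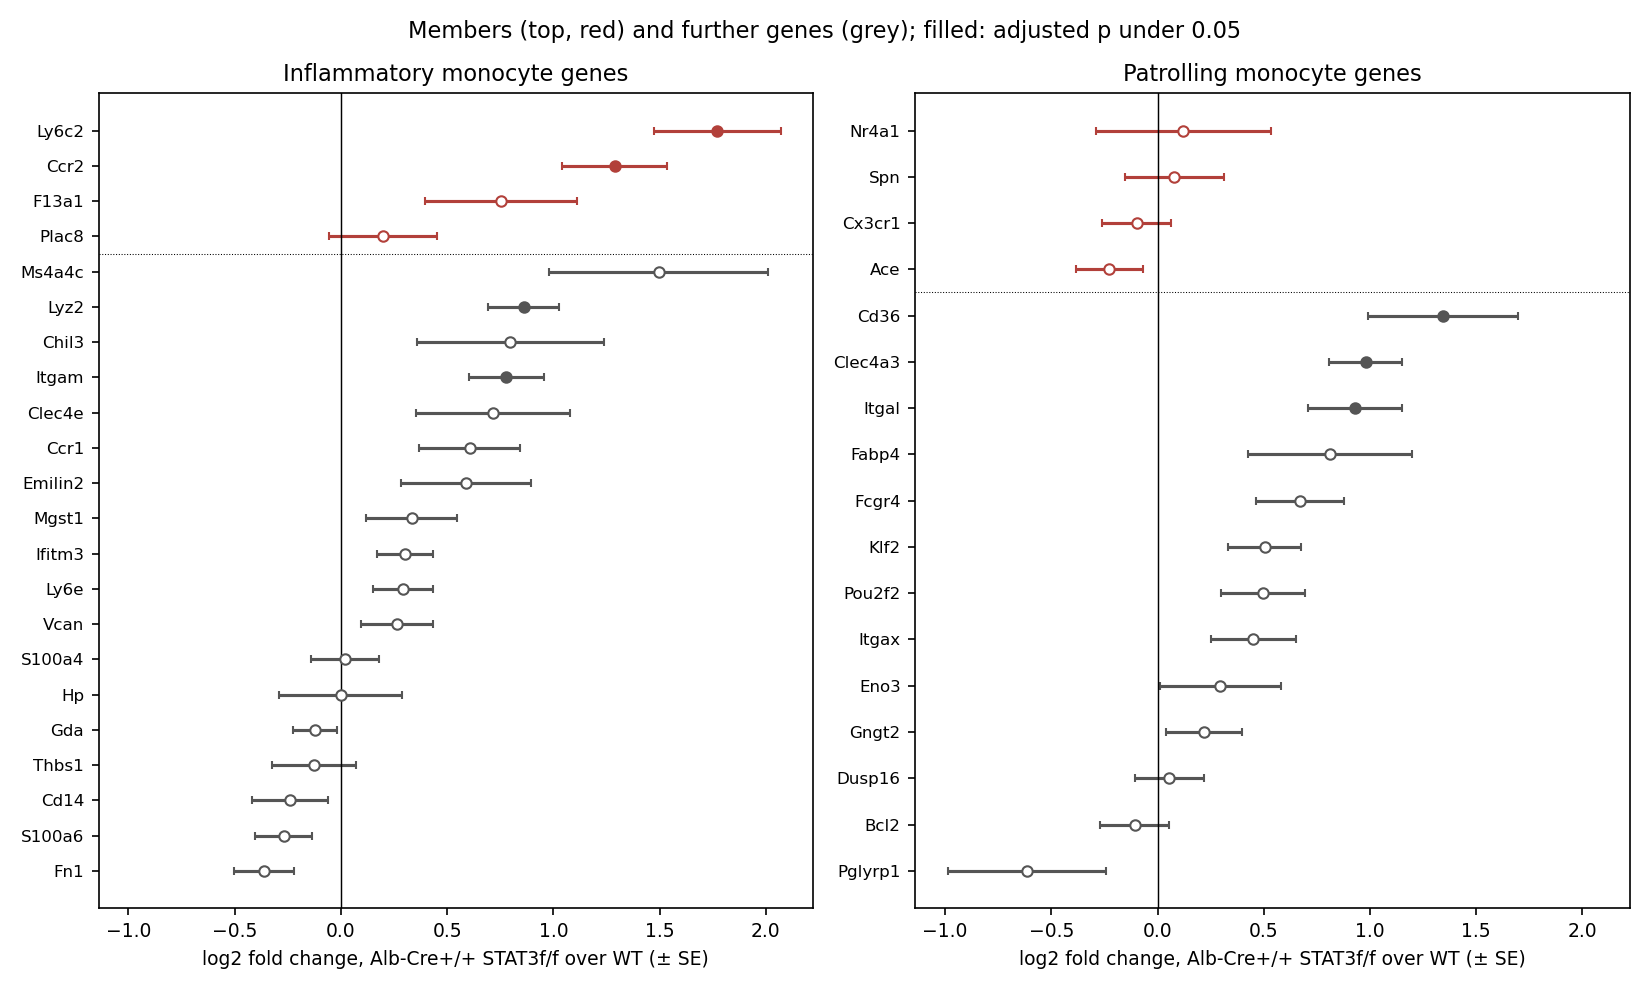
Log2 fold change (Alb-Cre+/+ STAT3f/f over WT, ± SE, x axis) of the 8 genes (red, above the dotted line) and of further genes tested (grey), inflammatory on the left and patrolling on the right. Filled points passed an adjusted p of 0.05. Among the genes drawn, Ly6c2, Ccr2, Lyz2 and Itgam are filled on the left and Cd36, Clec4a3 and Itgal on the right, where none of the 4 genes above the line is.

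Among the chemokines and growth factors examined, Ccl8 rose. The CCR2 ligands Ccl2, Ccl7 and Ccl12 and the CX3CR1 ligand Cx3cl1 did not pass. Whether Ccl8 acts through CCR2 was not tested. Of 8 ligands and growth factors 7 were tested: 1 rose, 0 fell and 6 failed the threshold. Ccl8, a chemokine related to CCL2, stood at 139, 240.4 and 420.1 CPM in Alb-Cre+/+ STAT3f/f tumours, against 65.4, 95.2 and 157 CPM in WT tumours. Ccl8 rose by 1.33 ± 0.27 on the log2 scale (edgeR adjusted p = 0.0235), with 5 of 6 Alb-Cre+/+ STAT3f/f values above the highest WT value. The call was lost without Alb-Cre+/+ STAT3f/f 1 or WT 1, 3 or 4, at adjusted p of 0.0504 to 0.0605, and was 0.0892 when the acinar score entered as covariate.

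Ccl2, the main ligand of CCR2, had a log2 fold change of 0.63 ± 0.36 (edgeR adjusted p = 0.362), with 5.51 to 16.2 CPM in Alb-Cre+/+ STAT3f/f tumours, against 2.33 to 11.6 CPM in WT tumours. Ccl7 and Ccl12, further ligands of CCR2, had 1.05 ± 0.49 (adjusted p = 0.246) and 0.99 ± 0.37 (adjusted p = 0.149). Ccl7 had -0.01 without the acinar-rich tumours. Cx3cl1, which encodes fractalkine, had 0.21 ± 0.12 (edgeR adjusted p = 0.382), at 29.4 to 37.1 CPM in Alb-Cre+/+ STAT3f/f tumours, against 24.5 to 35.5 CPM in WT tumours. Csf1, the ligand of CSF1R, had 0.57 ± 0.18 (adjusted p = 0.0793; 0.0271 without Alb-Cre+/+ STAT3f/f 4).

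Transcription factors of the lineage gave 4 that rose of 14 tested, 0 that fell, 9 positive and 5 negative fold changes and a median log2 fold change of 0.43. Irf8, which directs monocyte and dendritic cell development, had a log2 fold change of 0.78 ± 0.16 (edgeR adjusted p = 0.0117), with 0.0385 as its highest adjusted p when any 1 tumour was left out. Without the acinar-rich tumours Irf8 was at 0.79 ± 0.21 (edgeR adjusted p = 0.134). Irf5 and Cebpa rose by 0.91 and 0.51 on the log2 scale (edgeR adjusted p = 0.0332 for each). Both calls were lost when single tumours were left out, at adjusted p of 0.0530 to 0.0978: without Alb-Cre+/+ STAT3f/f 1, 2, 3 or 6 for both genes, and among WT tumours without 1, 2, 3, 4 or 6 for Irf5 and 1, 3, 5 or 6 for Cebpa. Klf2 and Nr4a3, which are active in patrolling monocytes or related to Nr4a1, had log2 fold changes of 0.50 ± 0.17 and 0.86 ± 0.31 (edgeR adjusted p = 0.115 and 0.128). Nr4a2, also related to Nr4a1, was not called and averaged 20.6 ± 2.02 CPM in Alb-Cre+/+ STAT3f/f tumours, against 21.5 ± 2.01 CPM in WT (SD).

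Of the genes shared by monocytes and macrophages, 14 were tested: 4 rose, 0 fell and 10 failed the threshold, with 14 positive fold changes and a median of 0.54. Ptprc, the pan-leukocyte antigen CD45, rose by 0.79 ± 0.16 (edgeR adjusted p = 0.0143), Laptm5 by 0.61 ± 0.12 (0.0113) and Adgre1, the macrophage antigen F4/80, by 0.76 ± 0.17 (0.0172) on the log2 scale. In the 7 tumours left without the acinar-rich ones, Ptprc and Adgre1 had log2 fold changes of 0.87 and 0.85 (edgeR adjusted p = 0.201 and 0.0531), no smaller than over all 12. The last, Tyrobp, lost its call when any tumour but Alb-Cre+/+ STAT3f/f 4 or WT 5 was left out, at adjusted p of 0.0507 to 0.105. The log2 fold changes of Ly6c2 and Ccr2 were larger than those of all 14 shared genes, of which the highest was 1.203 ± 0.37 for Csf2ra (edgeR adjusted p = 0.0959); these differences were not tested.

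Some markers of other cells that could hold the 8 genes passed the test. The 12 resident macrophage genes summed to 1178 to 1879 CPM in Alb-Cre+/+ STAT3f/f tumours, against 915 to 1122 CPM in WT tumours without overlap, and of 11 tested 4 rose, among them C1qb by 0.60 ± 0.11 and C1qc by 0.61 ± 0.13 on the log2 scale (edgeR adjusted p = 0.00714 and 0.0117). The other calls, of Mrc1 and C1qa, had adjusted p of 0.0438 and 0.0445. T cell genes summed to 54.9 to 114 CPM in Alb-Cre+/+ STAT3f/f tumours, against 18.7 to 53.7 CPM in WT tumours, again without overlap. Of 11 tested, all had positive fold changes, with a median of 1.03 on the log2 scale, against 1.02 for the 4 inflammatory genes. The 2 medians were not compared by a test. Only 1 T cell gene was called, Cd247 (log2 fold change 1.42 ± 0.35, edgeR adjusted p = 0.0283). Its call was lost without Alb-Cre+/+ STAT3f/f 1, 2 or 6 or WT 1, 3 or 6, at 0.0578 to 0.0769.

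The summed levels of the remaining marker lists overlapped between genotypes. Endothelial genes, Ly6c1 among them, summed to 232 to 429 CPM in Alb-Cre+/+ STAT3f/f tumours, against 240.2 to 354 CPM in WT tumours, with 0 of 12 called. Neutrophil genes summed to 128 to 205 CPM in Alb-Cre+/+ STAT3f/f tumours, against 109 to 222 CPM in WT tumours, with 0 of 8 called, and Ly6g, which defines these cells, totalled 15 counts over Alb-Cre+/+ STAT3f/f and 12 over WT libraries. Plasmacytoid dendritic cell genes summed to 519 to 718 CPM in Alb-Cre+/+ STAT3f/f tumours, against 501 to 597 CPM in WT tumours, with 0 of 6 called. Of these 6 genes 4 had positive and 2 negative fold changes. Siglech, their defining gene, totalled 75 counts over Alb-Cre+/+ STAT3f/f and 26 over WT libraries and did not pass the filter. Its level did not overlap, at 1.29 to 3.30 CPM in Alb-Cre+/+ STAT3f/f tumours, against 0 to 0.947 CPM in WT tumours, and was not tested. Megakaryocyte and platelet genes summed to 6.46 to 14.97 CPM in Alb-Cre+/+ STAT3f/f tumours, against 6.43 to 13.03 CPM in WT tumours, with 0 of 2 called.

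Some of the 8 genes followed such lists between tumours of 1 genotype. With each genotype centred on its own mean, 10 relations over 12 tumours were examined by permutation within genotype (100000 draws, two-sided, Benjamini-Hochberg over the 10). Spn followed the mean log2 CPM of the T cell list, with Pearson r = 0.764 (permutation p = 0.00179, adjusted 0.00903) and Spearman rho = 0.825 (permutation adjusted p = 0.00920). F13a1 followed the resident macrophage list, with r = 0.839 (permutation p = 0.00267, adjusted 0.00903) and rho = 0.846 (permutation adjusted p = 0.00920). Nr4a1 ran against Cx3cr1, with r = -0.802 (permutation p = 0.00271, adjusted 0.00903) and rho = -0.734 (permutation adjusted p = 0.0333), although both mark patrolling monocytes.

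These 3 relations kept their sign but not their call in smaller sets. Without the 2 tumours farthest from the median of the x measure, r was 0.676 for Spn, 0.672 for F13a1 and -0.532 for Nr4a1, each with a permutation adjusted p of 0.227. Among the 7 tumours with little acinar content r was 0.857, 0.704 and -0.735 (exact permutation adjusted p = 0.292, 0.438 and 0.438). None of the 3 calls held in either smaller set, so they were made on the full set of 12 tumours only. The 7 tumours allow few rearrangements within genotype, so a call there needed an arrangement close to the most extreme one. The lost calls among the 7 tumours therefore do not tell whether the relations depend on the tumours left out. The sets without the 2 farthest tumours allow many more rearrangements. There all 3 relations were weaker, with unadjusted permutation p of 0.0324 for Spn, 0.059 for F13a1 and 0.0699 for Nr4a1. Whether the relations depend on those 2 tumours was not tested.

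The other 7 relations did not pass. Ly6c2 and Ccr2 had r = 0.664 and rho = 0.622 (permutation adjusted p = 0.0834 and 0.146), and r = 0.359 without the 2 farthest tumours, WT 1 and WT 6. Within Alb-Cre+/+ STAT3f/f tumours alone r was 0.162 and within WT tumours 0.804, over 6 tumours each. Ace ran against the endothelial list, with r = -0.623 and rho = -0.539 (permutation adjusted p = 0.0834 and 0.149). Nr4a1 and the immediate early list had r = 0.441 and rho = 0.308 (permutation adjusted p = 0.250 and 0.435), Ccr2 and Ccl2 0.425 and 0.301 (0.314 and 0.436), and Ly6c2 and Ly6c1 0.412 and 0.518 (0.250 and 0.149). Plac8 and the plasmacytoid list had r = -0.400 and rho = -0.399 (permutation adjusted p = 0.314 and 0.357), and Cx3cr1 and Cx3cl1 0.117 and -0.03 (0.737 and 0.941).

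**Figure D5:**
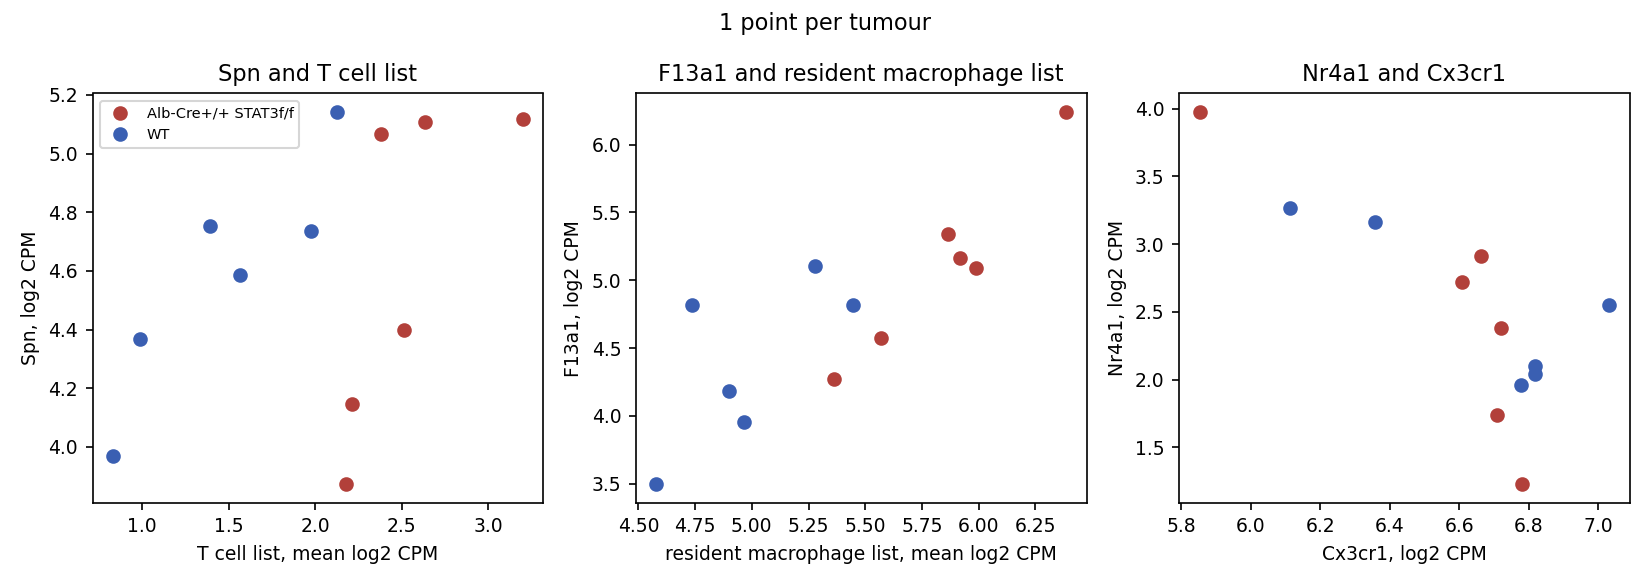
Spn against the T cell list, F13a1 against the resident macrophage list and Nr4a1 against Cx3cr1, in log2 CPM, with 1 point per tumour (Alb-Cre+/+ STAT3f/f red, WT blue). The genotype-centred Pearson r over 12 tumours is 0.764, 0.839 and -0.802; Alb-Cre+/+ STAT3f/f 2 is the point with the lowest Cx3cr1 and the highest Nr4a1.

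The genes whose pattern was most like that of Ly6c2 were sought among 10319 other genes with a mean of at least 5 CPM, by Pearson r of genotype-centred log2 CPM over 12 tumours. They were Arhgap30 (r = 0.925), Gins3 (0.894), Morn2 (0.894), Nagpa (0.872) and Isoc1 (0.870). For Nr4a1 they were Sdhd (r = 0.967), Snhg6 (0.951), Trim8 (0.933), Ppp2cb (0.929) and Eif4a2 (0.928). No gene of the monocyte lists was among these 10. With 12 tumours and so many genes, r of this size describes these libraries only.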

How the data were processed

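RNA of 12 tumours (6 Alb-Cre+/+ STAT3f/f and 6 WT hosts) was isolated from fixed, paraffin-embedded sections and read as QuantSeq 3′ libraries, per the labels' protocols. The deposited values are raw counts per gene symbol. STAR and the genome build mm10 are named in the submitters' processing notes; counting tool, annotation, strand, multi-mapping and filters: not given in the sources used here. Of 24982 entries, 26 with a number in place of a symbol were left out (0.0690 to 0.166% of a library's counts). No molecular identifiers are stated, so reads need not be independent molecules.

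edgeR 4.0.16 (R 4.3.3) was run on these counts. Low genes were removed by filterByExpr (minimum count 10, total 15), libraries were scaled by TMM (factors 0.578 to 1.29), and a two-sided, robust quasi-likelihood test of genotype was adjusted by Benjamini-Hochberg over 12856 genes at 0.05. A positive fold change means higher in Alb-Cre+/+ STAT3f/f tumours, and its SE is the fold change divided by the root of F. Log2 CPM used a prior count of 2. The procedure was tested on simulated data. DESeq2 1.42.0 was an alternative, with other scalings, filters, covariates and left-out tumours.

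The members and lists were chosen with earlier results of these data known. Genes were named by rule: the 8 members, Ly6c1, the ligands and Csf1r whatever they show, up to 4 called genes in a list, and the 5 genes most like Ly6c2 and Nr4a1; the text names part of them, and some results are not reported here. Outside that rule, and with values known, stand the untested genes, Klf2, Nr4a2, Nr4a3, Csf2ra, S100a6, Ly6e and Ifitm3. The ratios to Csf1r and Ly6c1 were added with the files in hand. Positions are RefSeq's on GRCm38.p6, the assembly of mm10; 24420 symbols (97.9%) matched 1 gene of GENCODE M21. No 2 libraries of a genotype agreed within sampling noise (chi-square per gene of at least 11.8).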

Additional observations from a re-analysis of the deposited data

Results flagged for a closer look

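Of 60 groups of 6 tumours examined (20 genes and 10 ratios in both genotypes), 1 held a tumour far from the others by Dixon's test at the 95% level, where chance gives about 1 in 20. Cx3cr1 was at 57.5 CPM in Alb-Cre+/+ STAT3f/f 2, against 97.2 CPM in the next lowest Alb-Cre+/+ STAT3f/f tumour, a gap of 0.76 of the range. The same tumour had the highest Nr4a1 and Plac8 of all 12, and 32.7% acinar counts. Without it the log2 fold change of Cx3cr1 was 0.01 and that of Nr4a1 -0.32.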

How the results depend on the processing

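Both calls, of Ly6c2 and Ccr2, were kept in every alternative in which the gene was tested. Under the filter of 10 CPM or more in 6 tumours, Ly6c2 and Nr4a1 were not tested, so 1 of the 8 genes was called and the 4-gene ratio had no value. The ratio difference of 1.61 was 2.22 without the 5 acinar-rich tumours (2 Alb-Cre+/+ STAT3f/f and 5 WT left) and 1.48 to 1.74 with 1 tumour left out.

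The tumour numbers did not pair the tumours (correlation of same-numbered deviations -0.513 to 0.127). With the replicate block 145 genes were higher and 44 lower over all genes, against 287 and 96, and 2 of the 8 genes were called; the block lost no call of the 8 genes and turned Nr4a1 to -0.013. Calls over all genes were 618 and 288 by DESeq2, 145 and 38 when the acinar score entered as covariate, and 83 and 14 without the acinar-rich tumours. With 1 tumour left out they were 141 to 471 higher and 37 to 222 lower: 141, 186 and 471 higher on dropping Alb-Cre+/+ STAT3f/f 1, 2 and 5, and 187, 169, 182 and 157 without WT 1, 3, 4 and 6; 37, 52, 60, 197 and 222 lower without Alb-Cre+/+ STAT3f/f 1 to 5, and 57, 45, 63, 152 and 63 without WT 1, 3, 4, 5 and 6. Member calls were 2 higher and 0 lower throughout these left-out fits.

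Signs that turned, none of them called, were those of Plac8 (-0.093 with the acinar covariate, -0.20 without acinar-rich tumours), Cx3cr1 (0.073, 0.0033 and, without Alb-Cre+/+ STAT3f/f 2, 0.011; -0.19 to 0.011 with 1 tumour left out), Nr4a1 (-0.64, -1.05 and, with the block, -0.013; -0.32 without Alb-Cre+/+ STAT3f/f 2, and up to 0.31 with 1 left out), Spn (-0.0046, -0.022 and -0.030 on dropping Alb-Cre+/+ STAT3f/f 4, 5 and 6, and -0.027 without WT 1; up to 0.21) and Ccl7 (-0.015 without acinar-rich tumours). The cause was not tested. Relations without acinar-rich tumours had r of 0.857 (Spn), 0.704 (F13a1), -0.735 (Nr4a1) and -0.133 (Ccr2 with Ccl2, whose sign turned); without the 2 farthest tumours the first 3 had 0.676, 0.672 and -0.532. Over 33 genes and 653 alternative values, 543 kept direction and side of the threshold, 91 lost and 5 gained a call and 14 turned sign. Ly6c2 and Nr4a1, with few counts in a library, limit the precision of the ratios that hold them.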
